A study of Mus musculus with 25 samples.

Results

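The genes described here are 9 genes of the hypoxia-inducible factor (HIF) pathway: the HIF alpha subunits Hif1a and Epas1, the prolyl hydroxylases Egln1 and Egln3, and the target genes Bnip3, Ankrd37, Adm, Vegfa and Ndrg1. They were chosen by name, as the mouse symbols that map to Ensembl gene identifiers of the deposited count table, and they are 9 of its 56941 genes. All 9 had enough reads to be tested, among 17682 tested genes. Bnip3 was lower in hearts of saline-infused WT mice than in hearts of WT mice without a pump, and Vegfa was higher in hearts labelled MCT1KO after Ang/PE than after saline. These were the member changes that passed the test in the 11 comparisons made. Leaving out saline hearts with signal of atrial muscle kept 1 saline heart in each genotype, too few to test either change. The log2 change of Bnip3 then went from -0.72 to -0.63 and that of Vegfa from 0.44 to 0.17.

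RNA was measured by sequencing in 25 mouse hearts, in a study of lactate metabolism during cardiac hypertrophy. The mice were WT controls or carried the label MCT1KO, a knockout of the lactate transporter gene Slc16a1. Each genotype was studied without a pump, with a pump delivering saline, or with a pump delivering Ang/PE, neurohormonal agonists that cause hypertrophy of the heart muscle. The 6 groups held 4 WT and 3 MCT1KO hearts without a pump, 6 WT and 4 MCT1KO hearts with saline, and 3 WT and 5 MCT1KO hearts with Ang/PE. Strain, age, sex, dose, time of infusion, time of collection, the deleted exons and any promoter that drives a recombinase are not given in the labels used here. Nothing there says whether hearts shared a litter, so p-values measure the spread between these hearts.

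Library depth ran from 12216704 to 24880683 counted reads per heart, and the Ang/PE groups were the shallowest. Slc16a1 itself was not lost in the hearts labelled MCT1KO: its level was 199.8 ± 29.6 CPM (counts per 1000000 reads; SD, n = 3) against 203 ± 36.8 (n = 4) in WT hearts without a pump, 158 ± 26 (n = 4) against 199 ± 29.9 (n = 6) with saline and 189.8 ± 21.9 (n = 5) against 214 ± 10.6 (n = 3) with Ang/PE. A count over the whole gene does not check a deletion of a few exons, so these hearts are called by their label throughout. The 5 cardiomyocyte markers Myh6, Tnnt2, Tnni3, Actn2 and Ryr2 were detected in all 6 groups, with summed levels from 28711 to 50604 CPM per heart. The atrial muscle markers Myl4, Myl7 and Sln, however, summed to 18.4 to 1136 CPM in 5 of 6 WT saline hearts and to 643, 695 and 3679 CPM in 3 of 4 saline hearts labelled MCT1KO, against 1.51 to 5.73 CPM in the 15 hearts without a pump or with Ang/PE, where Sln was at most 0.150 CPM and Myl7 at most 0.785 CPM. The 6 fat markers reached 1217 CPM in replicate 4 of the saline hearts labelled MCT1KO and lay between 11.6 and 18.2 CPM in those 15 hearts. The female-specific RNA Xist exceeded 100 CPM in 6 of 13 WT hearts and 7 of 12 hearts labelled MCT1KO, among them all 3 WT hearts with Ang/PE and none of the 3 MCT1KO hearts that had no pump.

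HIF alpha subunits are made continuously and, when oxygen is plentiful, are hydroxylated by prolyl hydroxylases, bound by the von Hippel-Lindau protein and degraded. When oxygen falls the alpha subunit persists, pairs with ARNT and binds short DNA elements with the core ACGTG or GCGTG near genes of glycolysis, mitophagy and blood vessel growth. Because this control acts on the protein, the mRNA of an alpha subunit need not follow HIF activity, whereas Egln3, Bnip3, Ankrd37, Vegfa, Adm and Ndrg1 are transcribed in response to it. In the heart the pathway is known for its part in ischaemia and in the blood supply of growing muscle.

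Promoter sequences are shown for 3 target genes because the results turn on Bnip3 and Vegfa, and Ankrd37 varied with Bnip3 across hearts. They come from RefSeq on GRCm38.p6, each on the minus strand and printed 5′ to 3′ in the sense of transcription. The Bnip3 stretch lies at chr7:138909520-138909756, the Ankrd37 stretch at chr8:45999868-46000100 and the most upstream Vegfa stretch at chr17:46032378-46032627. They start 250 bases before the annotated start, and bases annotated as exon were left out. Capitals mark ACGTG or GCGTG on either strand, so that a match on the other strand reads CACGT or CACGC.
Bnip3: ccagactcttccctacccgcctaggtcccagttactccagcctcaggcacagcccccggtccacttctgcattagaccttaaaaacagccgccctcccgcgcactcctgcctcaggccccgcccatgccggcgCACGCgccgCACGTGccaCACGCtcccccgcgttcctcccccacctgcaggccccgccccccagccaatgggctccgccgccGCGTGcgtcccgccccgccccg
Ankrd37: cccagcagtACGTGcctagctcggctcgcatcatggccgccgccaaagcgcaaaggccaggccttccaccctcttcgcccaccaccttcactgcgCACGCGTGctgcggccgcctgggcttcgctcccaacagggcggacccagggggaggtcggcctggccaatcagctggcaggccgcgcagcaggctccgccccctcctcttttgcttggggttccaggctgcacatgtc
Vegfa: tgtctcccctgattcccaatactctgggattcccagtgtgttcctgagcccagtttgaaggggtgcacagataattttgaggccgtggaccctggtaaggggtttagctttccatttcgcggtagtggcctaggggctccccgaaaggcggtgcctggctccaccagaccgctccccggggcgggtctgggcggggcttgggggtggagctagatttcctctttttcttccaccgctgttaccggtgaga
The Bnip3 stretch held 5 matches, of which the pair of ACGTG matches overlap on opposite strands. The Ankrd37 stretch held 3 matches, of which the pair of GCGTG matches also overlap on opposite strands, and a further match lay in the part not shown. The Vegfa stretch held 0, and the window of a second annotated Vegfa start, not shown, held 2. A window was found for 7 of the 9 members, all but Epas1 and Ndrg1, and 6 of these 7 had at least 1 match in the 250 bases before the most upstream start. Of 32851 windows of the same length, 38.6% held either core, 16.6% held ACGTG and 28.2% held GCGTG. These matches are letters in a window and were not set against binding data.

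Per kilobase of exon, the members covered a wide range of levels. Egln1 stood highest at 107 ± 19 CPM per kilobase (SD over 25 hearts), followed by Epas1 at 85.4 ± 11.8, and Egln1 exceeded Epas1 in 24 of 25 hearts. Vegfa came next at 59.6 ± 8.65 CPM per kilobase and Bnip3 at 50.8 ± 12.7, a neighbouring pair whose order held in only 18 of 25 hearts. Egln3 had 19.9 ± 4.51 CPM per kilobase and Hif1a 14.3 ± 2.75, with Egln3 above Hif1a in 20 of 25 hearts. Ndrg1 followed at 7.19 ± 1.32 CPM per kilobase, and Adm at 3.75 ± 0.662 stood above Ankrd37 at 2.16 ± 0.798 in 22 of 25 hearts. Epas1 above Vegfa, Bnip3 above Egln3, Hif1a above Ndrg1 and Ndrg1 above Adm were found in all 25 hearts. Adm and Ankrd37 rested on few reads, 45 to 159 and 22 to 119 counts per heart, whereas each heart held at least 415 counts of each of the other 7 genes.

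**Figure D1:**
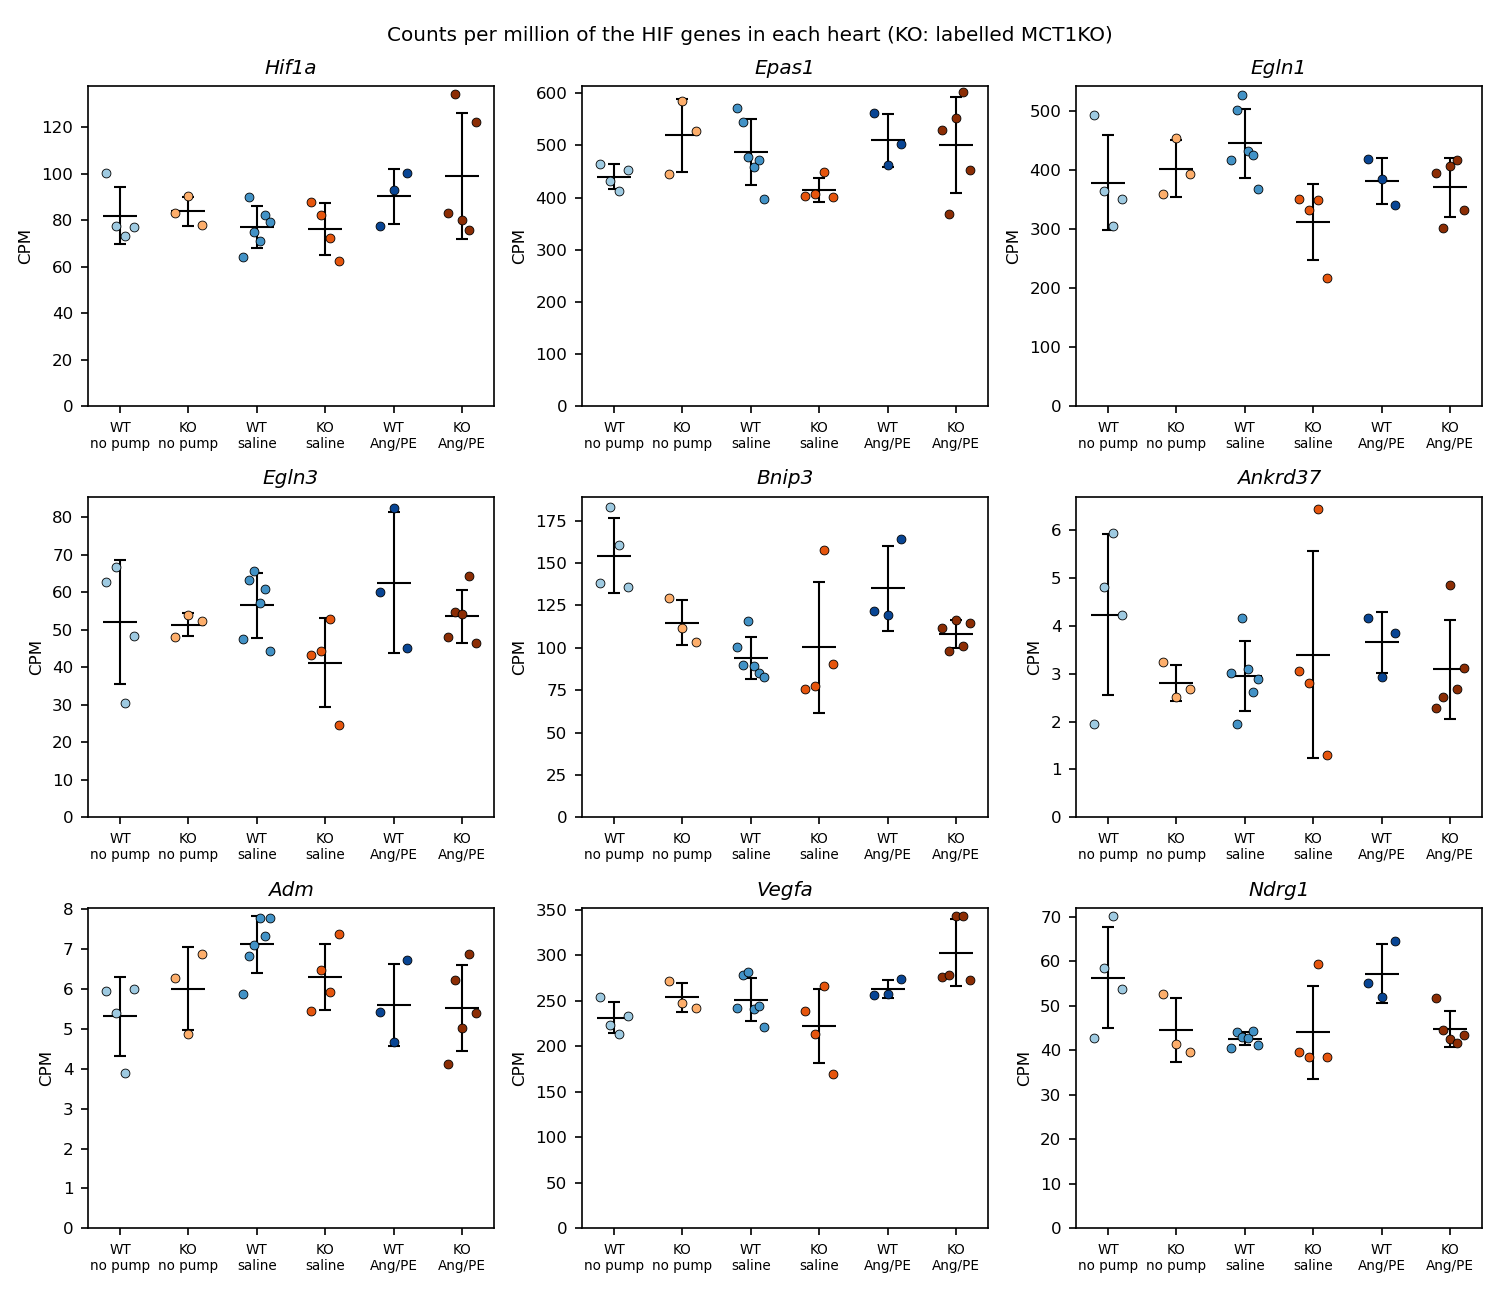
Level of each HIF gene in each of 25 hearts, in CPM on a linear axis from 0; points are hearts in replicate order, horizontal bars are group means and error bars are 1 SD. Bnip3 lies between 136 and 183 CPM in WT hearts without a pump and between 82.5 and 116 CPM in WT saline hearts, and Vegfa reaches 343 CPM in the Ang/PE hearts labelled MCT1KO.

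No change was called for most members, and with 3 to 6 hearts per group some changes may have been missed. A member was counted as changed at a Benjamini-Hochberg adjusted p below 0.05 over all tested genes in edgeR's quasi-likelihood test. Between no pump and saline in WT hearts, 1 of 9 members fell and 0 rose, where 4.22% of all tested genes fell, 2.39% rose and 6.61% passed in all. From saline to Ang/PE in hearts labelled MCT1KO, 1 of 9 rose and 0 fell, where 1.75% of all tested genes rose, 2.7% fell and 4.46% passed in all. In the other 9 comparisons 0 of 9 passed. The background there was 0.017% of genes (0.0113% higher, 0.00566% lower) from saline to Ang/PE in WT hearts, 0.503% (0.249% higher, 0.254% lower) from no pump to Ang/PE in hearts labelled MCT1KO, and 0.00566% for both the step from no pump to saline in hearts labelled MCT1KO and the difference between genotypes in that step. It was 0% for the genotypes compared without a pump, with saline or with Ang/PE, from no pump to Ang/PE in WT hearts and for the difference between genotypes in the response to Ang/PE. DESeq2 also called 0 of 9 members in these 9 comparisons.

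At an unadjusted p below 0.05, edgeR's quasi-likelihood test found 2, 2 and 1 of 9 members between genotypes without a pump, with saline and with Ang/PE, where 12.2%, 17% and 6.92% of all tested genes passed. It found 2 of 9 from saline to Ang/PE in WT hearts and 3 of 9 in hearts labelled MCT1KO, where 19.1% and 20.4% passed. For saline against no pump it found 3 of 9 in WT hearts and 2 of 9 in hearts labelled MCT1KO, where 24.3% and 12.1% passed. For Ang/PE against no pump it found 0 of 9 and 1 of 9, where 9.02% and 13.1% passed. The differences between genotypes in response gave 3 of 9 for Ang/PE and 3 of 9 for the saline pump, where 13.5% and 17.2% passed.

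**Figure D2:**
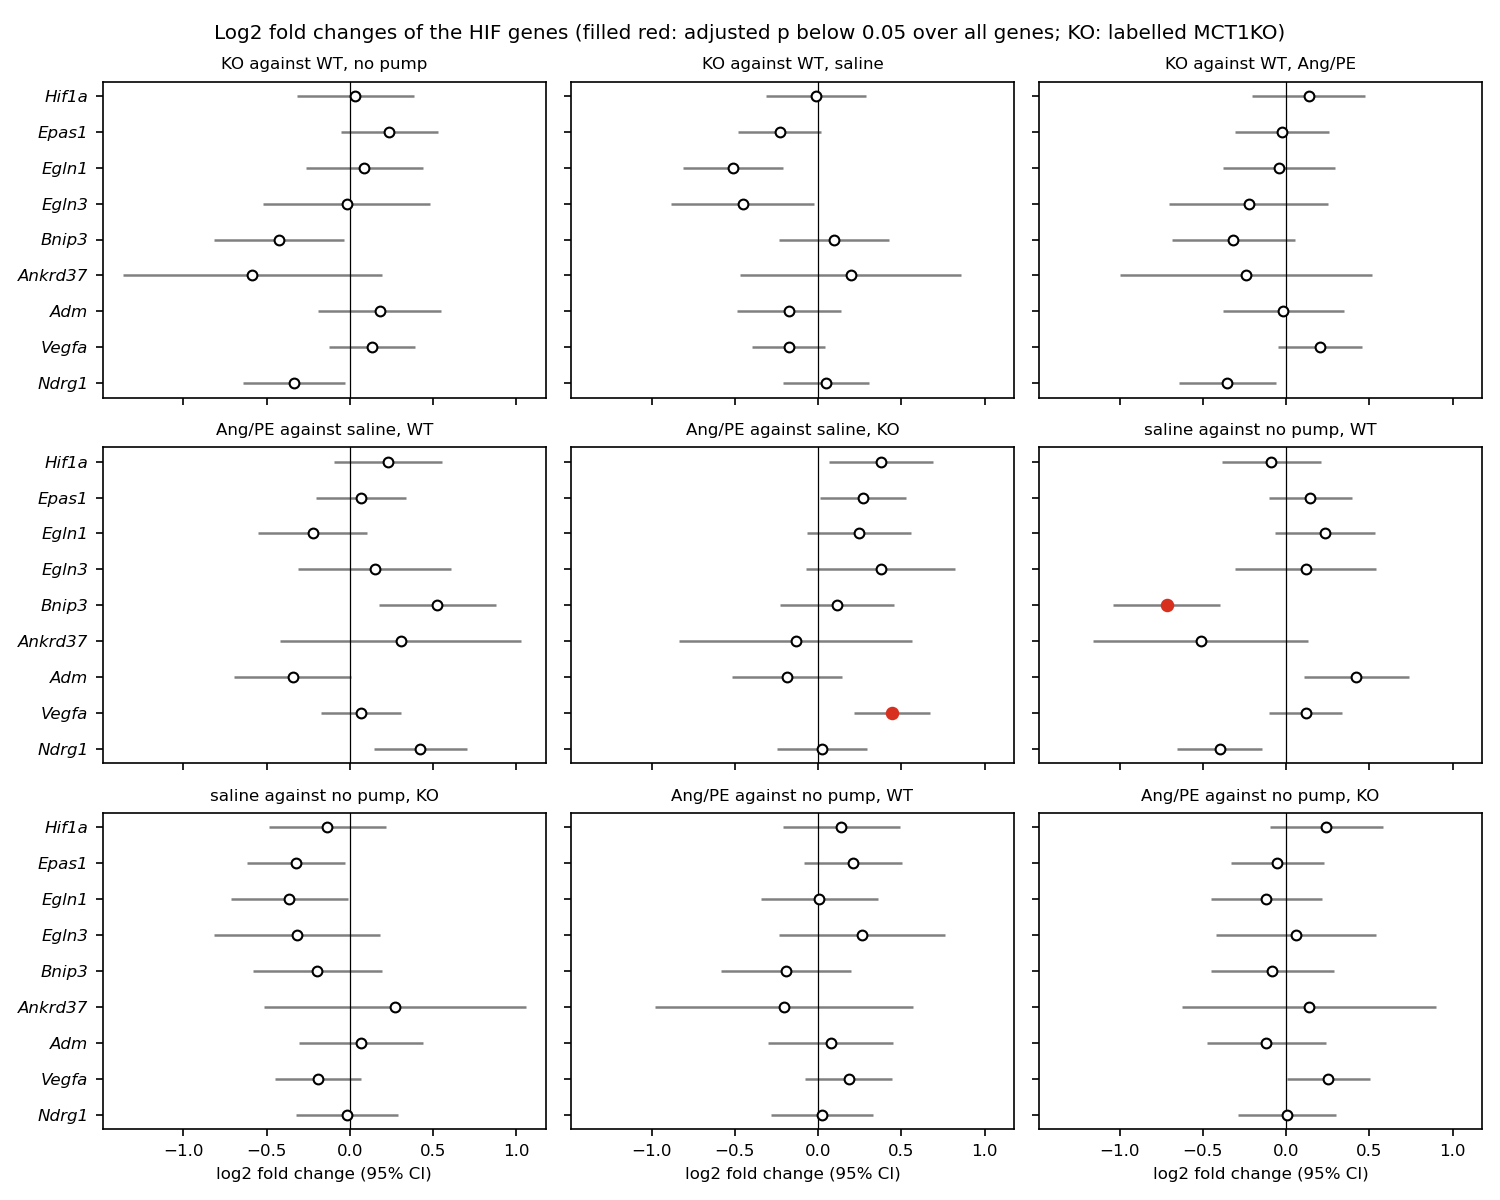
Log2 fold change of the 9 HIF genes in the 9 comparisons of a pair of groups; points are estimates of edgeR's 6-group model, lines are 95% confidence intervals, and filled red points passed at an adjusted p below 0.05. The filled points are Bnip3 between no pump and saline in WT hearts (-0.72) and Vegfa from saline to Ang/PE in hearts labelled MCT1KO (0.44), and the interval of Hif1a leaves 0 only in the latter panel (0.07 to 0.69).

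Hif1a encodes the HIF-1 alpha subunit, which is found in nearly all cells. It was measured at 100.2, 77.7, 73.1 and 77.0 CPM in WT hearts and at 83.1, 90.6 and 78.1 CPM in hearts labelled MCT1KO without a pump. With saline it ranged from 64.2 to 90.0 CPM in WT hearts, with a median of 77.2, and was 88.0, 82.1, 72.5 and 62.7 CPM in hearts labelled MCT1KO. With Ang/PE it was 77.5, 93.2 and 100.5 CPM in WT hearts and 83.1, 134, 80, 76.0 and 122 CPM in hearts labelled MCT1KO. Replicates 2 and 5 of the last group lay above all other hearts, while its other 3 hearts lay within the range of the saline hearts. The 4 fibroblast markers summed to 1290 and 1143 CPM in these replicates against 640 to 739 CPM in the other 3, and the cardiomyocyte markers to 34572 and 32995 CPM against 45450 to 46249 CPM, and their part in the Hif1a values was not tested. In hearts labelled MCT1KO the log2 fold change from saline to Ang/PE was 0.38 (SE 0.15), which did not pass in edgeR's quasi-likelihood test (adjusted p = 0.155). In WT hearts the same step was 0.23 (SE 0.16, adjusted p = 0.438 in the same test).

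Epas1 encodes the HIF-2 alpha subunit, which is abundant in endothelium. Its level was 465, 432, 412 and 452 CPM in WT hearts and 444, 585 and 527 CPM in hearts labelled MCT1KO without a pump. With saline it ranged from 396 to 572 CPM in WT hearts, with a median of 474, and was 402, 407, 448 and 402 CPM in hearts labelled MCT1KO. With Ang/PE it was 562, 463 and 503 CPM in WT hearts and 529, 368, 552, 602 and 452 CPM in hearts labelled MCT1KO. The saline hearts labelled MCT1KO lay low and close together, and in each comparison of a pair of groups made here the values overlapped. The saline step was 0.15 (SE 0.12) on the log2 scale in WT hearts and -0.32 (SE 0.14) in hearts labelled MCT1KO, and the difference between these steps was -0.47 (SE 0.19) and did not pass in edgeR's quasi-likelihood test (adjusted p = 0.207).

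Hif1a and Epas1 took opposite places in the Ang/PE hearts labelled MCT1KO. Replicates 2 and 5, which had the highest Hif1a at 134 and 122 CPM, had the lowest Epas1 of their group at 368 and 452 CPM. These are the hearts of that group with high fibroblast and low cardiomyocyte markers, whose part was not tested. Over 25 hearts the Pearson correlation of the log2 CPM of Hif1a and Epas1 was -0.20 (Spearman rho = -0.02), -0.51 after each group's mean had been removed, and 0.10 without the 2 hearts farthest from the median of Hif1a, so its sign rested on those hearts. It is given here as a description of hearts that share library preparation and scaling.

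Egln1 encodes PHD2, the main prolyl hydroxylase that marks HIF alpha subunits for degradation. Hearts without a pump had 493.4, 365, 306 and 352 CPM with the WT genotype and 359, 456 and 394 CPM with the label MCT1KO. With saline it ranged from 368 to 528 CPM in WT hearts, with a median of 429, and was 352, 333, 349.8 and 217 CPM in hearts labelled MCT1KO. All 4 of these lay below all 6 WT saline hearts, a separation found for 2.88% of tested genes. The log2 difference between genotypes with saline was -0.51 (SE 0.15), the member difference between genotypes with the smallest p, and it did not pass in edgeR's quasi-likelihood test (adjusted p = 0.144).

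With Ang/PE, Egln1 was 419, 385 and 341 CPM in WT hearts and 396, 303, 407, 417 and 332 CPM in hearts labelled MCT1KO, so the genotypes overlapped there. The genotypes also overlapped without a pump. The 4 saline hearts labelled MCT1KO lay below the 3 without a pump, where 8.6% of tested genes were so separated. The differences between genotypes in the saline step (-0.60, SE 0.22, adjusted p = 0.186) and in the step from saline to Ang/PE (0.47, SE 0.22, adjusted p = 0.355) did not pass in edgeR's quasi-likelihood test. Both of these differences use the same saline hearts. Replicate 4 of the saline hearts labelled MCT1KO, which had the lowest Egln1 of all hearts at 217 CPM, also had the highest atrial and fat marker sums at 3679 and 1217 CPM and the lowest cardiomyocyte marker sum at 28711 CPM. In bulk tissue, fewer cells of a type and less RNA per cell cannot be told apart. Without this heart the Egln1 difference with saline was -0.36, with atrial and fat scores as covariates it was -0.19, and with the saline hearts of higher atrial signal left out it was -0.24.

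Egln3 encodes PHD3, a prolyl hydroxylase whose gene is itself a HIF target. It ranged from 24.5 CPM, in replicate 4 of the saline hearts labelled MCT1KO, to 82.5 CPM, in replicate 2 of the WT Ang/PE hearts. Its group means were 52.0 ± 16.5 CPM (SD, n = 4) in WT and 51.4 ± 3.02 (n = 3) in MCT1KO hearts without a pump, 56.5 ± 8.69 (n = 6) and 41.3 ± 12 (n = 4) with saline, and 62.6 ± 18.8 (n = 3) and 53.5 ± 6.97 (n = 5) with Ang/PE. The values of all pairs of groups overlapped. With saline the log2 difference between genotypes was -0.45 (SE 0.21) and did not pass in edgeR's quasi-likelihood test (adjusted p = 0.273).

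Bnip3 encodes a mitochondrial outer membrane protein that promotes mitophagy and cell death and is a direct HIF target. It was measured at 138, 183, 161 and 136 CPM in WT hearts without a pump, and in WT saline hearts it ranged from 82.5 to 116 CPM with a median of 89.5. The groups did not overlap, a separation found for 10.3% of tested genes. Bnip3 fell by 0.72 on the log2 scale (SE 0.16, 95% confidence interval -1.04 to -0.39), with an adjusted p of 0.0135 in edgeR's quasi-likelihood test. Other measures moved between these groups: the 3 mural cell markers summed to 774 to 927 CPM without a pump and 631 to 772 CPM with saline, mitochondrially encoded genes held a median of 17.6% and 11.9% of reads, and the median sum of cardiomyocyte markers was 31617 and 46377 CPM. The part of these in the Bnip3 difference was not tested, apart from a fit without mitochondrially encoded genes, in which Bnip3 passed.

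With Ang/PE, Bnip3 was 122, 119.6 and 164 CPM in WT hearts, all above the 6 WT saline hearts, where 13.6% of tested genes were so separated. This step was 0.53 on the log2 scale (SE 0.17) and did not pass in edgeR's quasi-likelihood test (adjusted p = 0.112). It shares the saline hearts with the step before it. WT hearts with Ang/PE and without a pump differed by -0.19 (SE 0.19, 95% confidence interval -0.58 to 0.20), and their values overlapped.

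In hearts labelled MCT1KO, Bnip3 was 129, 112 and 103 CPM without a pump, 76.0, 77.6, 157 and 90.2 CPM with saline, and 112, 98.3, 116, 100.9 and 115 CPM with Ang/PE. Replicate 3 of the saline hearts stood above all others of this genotype, and the remaining 3 saline hearts lay below all hearts without a pump. The saline step in this genotype was -0.20 (SE 0.19, adjusted p = 0.725 in edgeR's quasi-likelihood test). Without replicate 3, edgeR's quasi-likelihood test called Bnip3 in this step and in the step from saline to Ang/PE of both genotypes. The WT step does not contain replicate 3, and its counts were the same in that fit. The model shares its estimate of spread over all 6 groups, so the WT call there is not a change in the WT hearts. The difference between genotypes in the saline step was 0.52 (SE 0.25, adjusted p = 0.28) and did not pass in edgeR's quasi-likelihood test.

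Without a pump, all 3 hearts labelled MCT1KO lay below all 4 WT hearts in Bnip3, where 11.5% of tested genes were so separated. Here the log2 difference was -0.43 (SE 0.19), which did not pass in edgeR's quasi-likelihood test (adjusted p = 0.375). With Ang/PE the genotypes did not overlap either, where 5.1% of tested genes were so separated, and the difference was -0.32 (SE 0.18, adjusted p = 0.741 in the same test). With saline the genotypes overlapped, at 93.9 ± 12.5 CPM (SD, n = 6) in WT hearts and 100.3 ± 38.6 (n = 4) in hearts labelled MCT1KO.

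The 8 saline hearts with atrial muscle signal had 76.0 to 116 CPM of Bnip3, which overlapped the hearts labelled MCT1KO without a pump. Replicate 1 of the WT saline hearts, with atrial markers at 2.03 CPM, had 100.5 CPM of Bnip3, below all 4 WT hearts without a pump. Replicate 3 of the saline hearts labelled MCT1KO, with atrial markers at 1.5 CPM, had 157 CPM, within the range of those hearts. With the 5 WT and 3 MCT1KO saline hearts of higher atrial signal left out, the saline step of Bnip3 in WT hearts was -0.63, resting on the 1 saline heart left in each genotype. With atrial and fat marker scores as covariates it was -0.46 (adjusted p = 0.641), and without replicate 3 of the WT hearts that had no pump it was -0.70 (adjusted p = 0.0565), both in edgeR's quasi-likelihood test.

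Ndrg1 encodes a stress-induced protein of the N-myc downstream-regulated family. It was measured at 42.7, 58.4, 70.1 and 53.8 CPM in WT hearts without a pump, at 40.5 to 44.4 CPM with a median of 42.8 in WT saline hearts, and at 55.1, 51.9 and 64.6 CPM in WT Ang/PE hearts. Saline hearts were low and tightly grouped, and only replicate 1 of the hearts without a pump reached their range. On the log2 scale the saline step in WT hearts was -0.40 (SE 0.12) and did not pass in edgeR's quasi-likelihood test (adjusted p = 0.0517). The step from saline to Ang/PE was 0.42 (SE 0.14), without overlap, as for 13.6% of tested genes, and did not pass in the same test either (adjusted p = 0.105). DESeq2 called the saline step, and edgeR's test called it without any 1 of 6 single hearts, among them replicate 1 of the hearts without a pump (-0.52).

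In hearts labelled MCT1KO, Ndrg1 was 52.7, 41.5 and 39.5 CPM without a pump, 39.6, 38.4, 59.5 and 38.5 CPM with saline and 51.7, 44.6, 42.5, 41.6 and 43.4 CPM with Ang/PE. As for Bnip3, replicate 3 was the high saline heart. With Ang/PE all 5 hearts labelled MCT1KO lay below all 3 WT hearts, by as little as 51.7 against 51.9 CPM, where 5.1% of tested genes were so separated, and the log2 difference of -0.35 (SE 0.14) did not pass in edgeR's quasi-likelihood test (adjusted p = 0.692). The genotypes differed in their step from saline to Ang/PE by -0.40 (SE 0.19), which did not pass in the same test (adjusted p = 0.361).

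Ankrd37 encodes a small ankyrin repeat protein, and its gene is a HIF target. Its level was 1.94, 4.82, 5.94 and 4.24 CPM in WT hearts and 3.24, 2.52 and 2.68 CPM in hearts labelled MCT1KO without a pump. With saline it ranged from 1.94 to 4.17 CPM in WT hearts, with a median of 2.96, and was 3.06, 2.81, 6.44 and 1.30 CPM in hearts labelled MCT1KO. With Ang/PE it was 4.18, 2.94 and 3.86 CPM in WT hearts and 2.29, 2.51, 4.86, 2.69 and 3.12 CPM in hearts labelled MCT1KO. The saline hearts labelled MCT1KO held both the highest and the lowest value of all 25 hearts, in replicates 3 and 4. No pair of groups was separated, and the widest log2 difference between a pair of groups was -0.59 (SE 0.38, 95% confidence interval -1.36 to 0.19), between genotypes without a pump.

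Vegfa encodes the main growth factor for endothelial cells. It was measured at 255, 224, 214 and 234 CPM in WT hearts and 272, 247 and 242 CPM in hearts labelled MCT1KO without a pump. With saline it ranged from 221 to 281 CPM in WT hearts, with a median of 243, and was 238, 214, 267 and 170.0 CPM in hearts labelled MCT1KO. With Ang/PE it was 257, 257 and 274 CPM in WT hearts and 276, 278, 343, 343 and 273 CPM in hearts labelled MCT1KO. All 5 Ang/PE hearts labelled MCT1KO lay above all saline hearts and all hearts without a pump of that label, separations found for 5.42% and 8.45% of tested genes.

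In hearts labelled MCT1KO, Vegfa rose by 0.44 on the log2 scale from saline to Ang/PE (SE 0.11, 95% confidence interval 0.22 to 0.67), with an adjusted p of 0.0248 in edgeR's quasi-likelihood test. In WT hearts the same step was 0.07 (SE 0.12, 95% confidence interval -0.17 to 0.30, adjusted p = 0.805 in the same test). The difference between these steps was 0.38 (SE 0.16) and did not pass in edgeR's quasi-likelihood test (adjusted p = 0.33), so the genotypes were not shown to respond differently. Against hearts without a pump, Ang/PE gave 0.25 (SE 0.12, adjusted p = 0.371) in hearts labelled MCT1KO and 0.18 (SE 0.13, adjusted p = 0.695) in WT hearts, neither of which passed in that test. Every WT Ang/PE heart nevertheless lay above every WT heart without a pump, where 10.7% of tested genes were so separated.

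Vegfa varied within the saline group, and its call held in 21 of 25 fits that each left out 1 heart. The 4 fits that lost it each left out one of the 4 saline or 5 Ang/PE hearts compared, and the other groups do not enter this comparison. Replicate 4, the saline heart with the highest atrial and fat marker sums, had the lowest Vegfa of all 25 hearts at 170.0 CPM. Replicate 3, with atrial markers at 1.5 CPM, had 267 CPM, close to the 273 CPM of the lowest Ang/PE heart. Without replicate 4 the log2 change was 0.33 and did not pass in edgeR's quasi-likelihood test (adjusted p = 0.138). The call was also lost without replicate 2 of this saline group (adjusted p = 0.0537) and without replicate 3 or 4 of the Ang/PE group (adjusted p = 0.0637 and 0.0696) in edgeR's quasi-likelihood test. With the saline hearts of higher atrial signal left out, which kept 1 saline heart in each genotype, the change was 0.17. It was 0.16 with atrial and fat scores as covariates and 0.19 with a clock gene score as covariate (adjusted p = 0.763 and 0.872 in that test).

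The clock markers Per3, Dbp, Nr1d1 and Ciart separated the same groups. They summed to 409, 362, 288 and 381 CPM in the saline hearts labelled MCT1KO and to 175, 132, 167, 118 and 155 CPM in the Ang/PE hearts of that label. In all 5 Ang/PE hearts Vegfa was higher, and the clock sum lower, than in any of these saline hearts. The fit with the clock score therefore cannot tell the score from the treatment. Xist was high in 3 of 4 and 4 of 5 hearts of these groups, and with Xist as covariate the change was 0.44 (adjusted p = 0.0309 in edgeR's quasi-likelihood test).

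**Figure D3:**
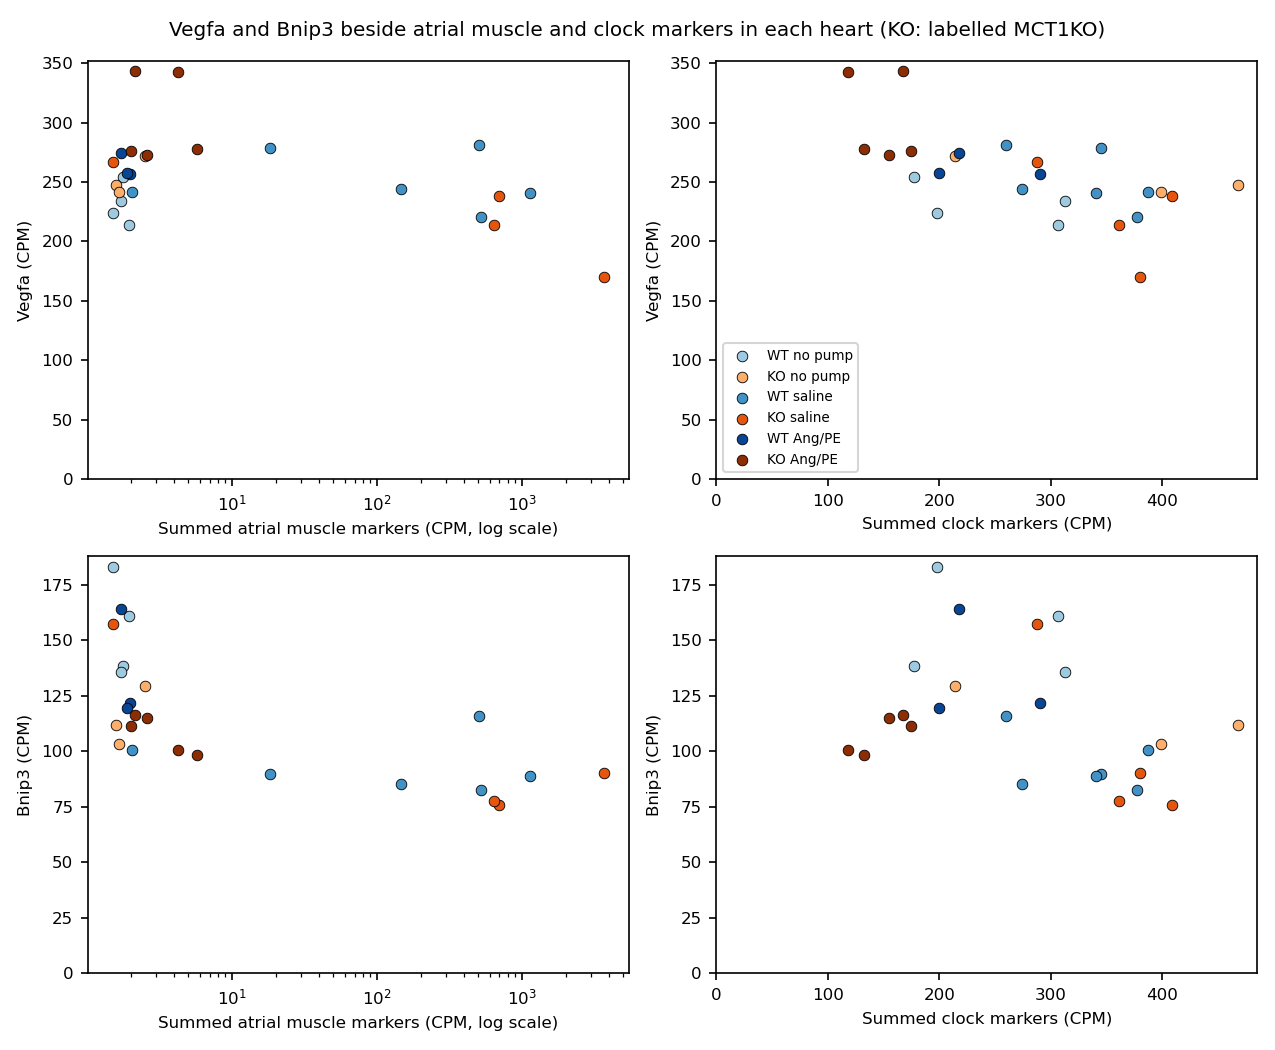
Vegfa (top) and Bnip3 (bottom) in CPM against the summed atrial muscle markers on a log axis (left) and the summed clock markers (right); each point is 1 of 25 hearts. The lowest Vegfa, 170.0 CPM, belongs to the heart with 3679 CPM of atrial markers, and the 5 Ang/PE hearts labelled MCT1KO hold the lowest clock sums, from 118 to 175 CPM.

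Adm encodes adrenomedullin, a vasodilator peptide secreted by heart and vessel cells. It ranged from 3.90 to 7.79 CPM over all hearts. WT saline hearts were highest, at 5.87 to 7.79 CPM with a median of 7.21, against 5.96, 5.41, 3.90 and 6.00 CPM in WT hearts without a pump and 5.43, 4.68 and 6.72 CPM in WT hearts with Ang/PE. The lowest saline heart overlapped both of these groups. In WT hearts the saline step was 0.42 on the log2 scale (SE 0.15) and did not pass in edgeR's quasi-likelihood test (adjusted p = 0.0911). In hearts labelled MCT1KO Adm had 6.01 ± 1.04 CPM (SD, n = 3) without a pump, 6.31 ± 0.83 (n = 4) with saline and 5.53 ± 1.07 (n = 5) with Ang/PE, and no difference between these groups passed.

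Some members varied together from heart to heart. The Pearson correlation of log2 CPM over 25 hearts was above 0.5 for 8 of the 36 pairs of members and below 0 for 13. The points share library preparation, depth and the marker differences given above, so the coefficients are a description. Bnip3 and Ndrg1 formed the closest pair, with r = 0.82 and Spearman rho = 0.74. Their r was 0.71 after group means were removed and 0.80 without the 2 hearts farthest from the median of Bnip3. Ankrd37 followed both, with r = 0.65 to Ndrg1 and 0.60 to Bnip3, and these were 0.62 and 0.59 after group means were removed.

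The hydroxylase genes Egln1 and Egln3 formed a second pair, with r = 0.75 and rho = 0.65, and r = 0.57 without the 2 hearts farthest from the median of Egln1. Epas1 and Egln1 had r = 0.62 and rho = 0.70. Egln3 and Vegfa had r = 0.60 and rho = 0.49, and r = 0.62 after group means were removed. Their r dropped to 0.25 without the 2 hearts farthest from the median of Egln3, so its size depended on those hearts. The lowest r was that of Adm and Ndrg1, at -0.46, which was -0.30 after group means were removed and -0.25 without the 2 farthest hearts.

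**Figure D4:**
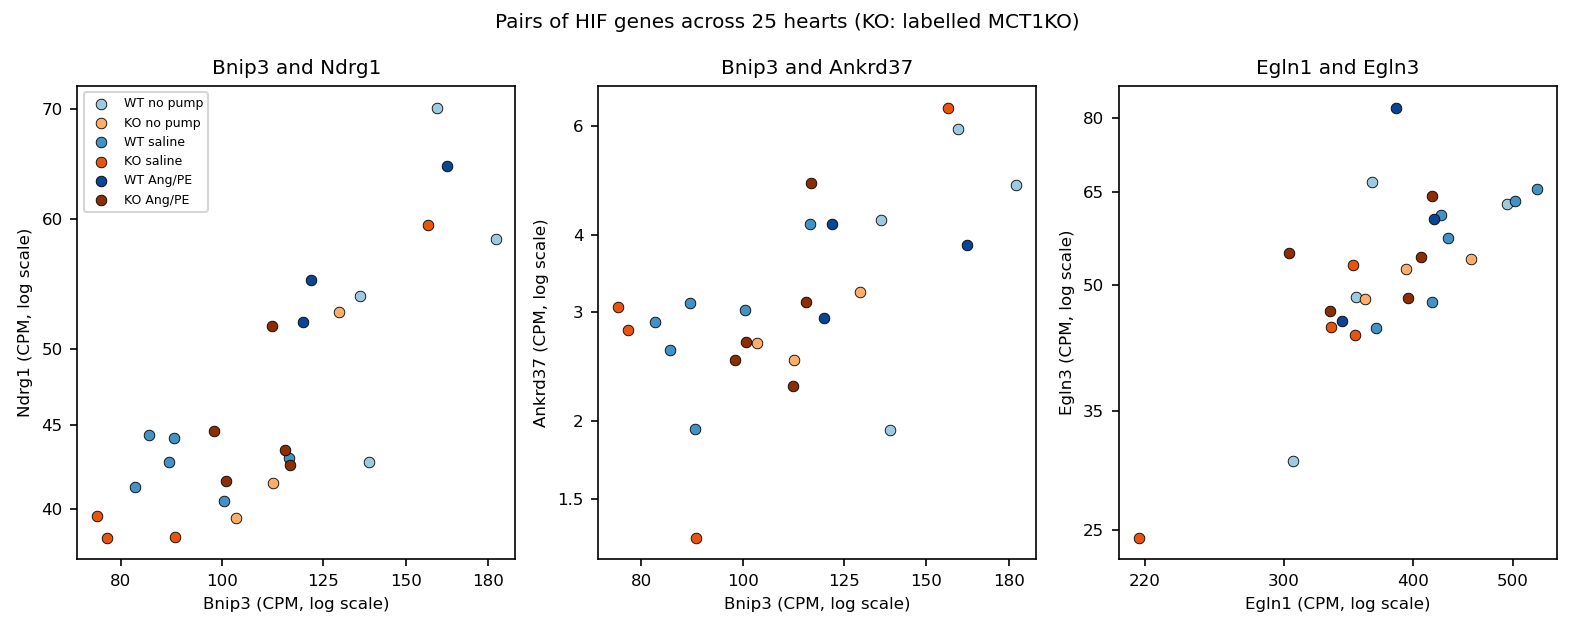
Levels of 3 pairs of HIF genes in 25 hearts, in CPM on log axes; each point is a heart, coloured by group. The saline heart labelled MCT1KO with 157 CPM of Bnip3 lies among the WT hearts without a pump in Ndrg1 (59.5 CPM). It lies above all of them in Ankrd37 (6.44 CPM). The heart with 217 CPM of Egln1 has the lowest Egln3 (24.5 CPM).

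Of 11606 tested genes with a symbol and a mean log2 CPM above 1, genes much like each member over the 25 hearts were found by Pearson r of log2 CPM. Close to Egln1 were Hrc (r = 0.97) and Rhot2 (0.95), and closest to Epas1 were Ubr2 (0.92), Cmya5 (0.89) and Hdlbp (0.84). For Ndrg1 they were Ly6a (0.92), Ly6c1 (0.90) and Acvrl1 (0.90), and for Bnip3 Ly6c1 (0.87), Hrct1 (0.87) and Cnep1r1 (0.87), so that Ly6c1 stood near both. Vegfa was closest to Inpp5a (0.85), Nt5dc3 (0.85) and Myom1 (0.84), and Egln3 to Ung (0.87), Mrpl44 (0.82) and Pptc7 (0.82). The weakest likeness was found for Ankrd37 with Fmnl1 (0.80), Hif1a with Spcs3 (0.78) and Adm with Slc36a4 (0.72).

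The other genes of the pathway were described from 3 lists: 16 genes of the HIF machinery (partners, hydroxylases and degradation factors), 26 metabolic target genes and 32 other target genes. Of these 16, 24 and 30 were tested. Car9 and Epo had too few reads, Aldoa was represented by 2 gene identifiers and not used, and Ero1a was not matched. Between no pump and saline in WT hearts, where 6.61% of all genes passed, 3 of 16 machinery genes fell and 0 rose, 0 of 24 metabolic targets passed, and 1 of 30 other targets rose and 1 fell. The median log2 fold changes were 0.09, 0.10 and -0.14, beside 0.00 for all tested genes.

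Hif3a, which encodes a HIF alpha paralogue that can restrain the pathway, had 6.15 ± 2.93 CPM (SD, n = 4) in WT hearts without a pump and 2.27 ± 0.84 (n = 6) in WT saline hearts. It fell by 1.43 on the log2 scale (SE 0.39), with an adjusted p of 0.0323 in edgeR's quasi-likelihood test, although the groups overlapped. Eloc, a subunit of the ubiquitin ligase that contains the von Hippel-Lindau protein, fell by 0.42 (SE 0.10, adjusted p = 0.0204 in the same test) without overlap, as for 10.3% of tested genes, from 32.7 ± 1.2 to 24.4 ± 1.61 CPM. Siah1a, a ubiquitin ligase, fell by 0.33 (SE 0.10, adjusted p = 0.0447), and the histone demethylase gene Kdm4b rose by 0.25 (SE 0.07, adjusted p = 0.0469), both in the same test. Calcrl, which encodes the receptor that Adm acts on together with Ramp2 or Ramp3, fell by 0.58 (SE 0.15, adjusted p = 0.025 in edgeR's quasi-likelihood test), from 44.0 ± 7.24 to 29.4 ± 3.12 CPM. Over 35 alternatives, edgeR or DESeq2 called Eloc in 29, Calcrl in 28, Hif3a in 24, Siah1a in 17 and Kdm4b in 11. Of these alternatives, 25 left out 1 heart each, including hearts outside the groups compared. With atrial and fat scores as covariates none of these genes passed (adjusted p = 0.641 to 0.74 in edgeR's quasi-likelihood test). Leaving out single hearts ended the call of Eloc for 2 hearts, of Calcrl for 4 and of Hif3a for 6, in each case with the largest adjusted p without replicate 3 of the WT hearts that had no pump (0.0735, 0.117 and 0.14 in edgeR's quasi-likelihood test). Without the saline hearts of higher atrial signal, 1 saline heart was left in each genotype. The log2 changes of Eloc, Calcrl, Hif3a, Siah1a and Kdm4b were then -0.36, -0.49, -1.41, -0.52 and 0.18.

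In hearts labelled MCT1KO, 0 of 16 machinery genes changed between saline and Ang/PE, while 1 of 24 metabolic targets rose and 1 fell, and 4 of 30 other targets rose and 1 fell, where 4.46% of all genes passed. The medians were 0.05, 0.17 and 0.15 on the log2 scale, beside -0.01 for all tested genes. P4ha1, a subunit of the hydroxylase that matures collagen, rose by 0.47 (SE 0.10, adjusted p = 0.0141 in edgeR's quasi-likelihood test). Its hearts had 48.3, 46.5, 54.8 and 57.6 CPM with saline and 75.9, 79.6, 60.8, 62.6 and 80.3 CPM with Ang/PE. P4ha1 was called without each of the 25 hearts in turn, most of which lie outside the groups compared. It was not called with atrial and fat scores as covariates (0.49, adjusted p = 0.454 in edgeR's quasi-likelihood test). Nor was it called with the clock score, whose sums separate these groups (0.42, adjusted p = 0.577 in the same test). Without the 8 saline hearts of higher atrial signal, where 1 saline heart was left in each genotype, its change was 0.38. Pfkp, a phosphofructokinase of glycolysis, rose by 0.59 (SE 0.15, adjusted p = 0.0273 in the same test), from 72.8, 70.6, 57.9 and 67.4 CPM to 90.9, 122, 84.8, 87.8 and 118 CPM. Without those 8 hearts its change was 0.79. Leaving out any 1 of 4 single hearts ended its call, with the largest adjusted p without replicate 4 of the saline hearts (0.112 in edgeR's quasi-likelihood test).

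Ddit4, an inhibitor of mTOR signalling, rose by 1.64 (SE 0.43, adjusted p = 0.0354 in edgeR's quasi-likelihood test), from 24.8, 25.1, 45.7 and 14 CPM to 164, 53.8, 73.2, 74.2 and 63.9 CPM. Leaving out any 1 of 7 single hearts ended its call, with the largest adjusted p without replicate 4 of the saline hearts (adjusted p = 0.178 in the same test). Edn1, which encodes the vasoconstrictor endothelin, rose by 1.02 (SE 0.28, adjusted p = 0.0352 in the same test), but by 0.63 without replicate 2 of the Ang/PE hearts (adjusted p = 0.093), the heart with 16.9 CPM. Pfkfb3, which encodes an activator of glycolysis, fell by 2.10 (SE 0.49, adjusted p = 0.0223 in edgeR's quasi-likelihood test). It was at 208 CPM in replicate 4 of the saline hearts, the heart with the highest fat markers, and at 27.8, 22.4 and 19.3 CPM in the other 3, and without replicate 4 its change was -0.53 (adjusted p = 0.148). Insig2 rose by 0.28 (adjusted p = 0.0437) and Stc2 fell by 0.58 (adjusted p = 0.0497) in that test, and these were called in only 8 and 7 of 35 alternatives.

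Against hearts without a pump, 2 of 24 metabolic targets and 1 of 30 other targets rose with Ang/PE in hearts labelled MCT1KO and 0 genes of the 3 lists fell, where 0.503% of all genes passed. Pfkp rose by 1.01 on the log2 scale (SE 0.17, adjusted p = 0.0064 in edgeR's quasi-likelihood test), from 47.1, 42.0 and 60.5 CPM without a pump. Pgam1, a phosphoglycerate mutase of glycolysis, rose by 0.71 (SE 0.15, adjusted p = 0.0269), and P4ha1 rose by 0.60 (SE 0.11, adjusted p = 0.0142), both in that test. All 3 genes lost their call without replicate 2 of the hearts without a pump (adjusted p = 0.077 for Pfkp, 0.256 for Pgam1 and 0.185 for P4ha1 in edgeR's quasi-likelihood test), and P4ha1 and Pgam1 also without replicate 1 (adjusted p = 0.0535 for both). In all, 5 single hearts ended the call of Pgam1, 2 that of P4ha1 and 1 that of Pfkp. This comparison shares the Ang/PE hearts with the one before it. Its groups had atrial markers of at most 5.73 CPM. Their clock sums did not overlap, at 118 to 175 CPM with Ang/PE and 214 to 468 CPM without a pump, and Xist was high in 4 of 5 and 0 of 3 hearts. With Xist as a covariate the log2 changes of P4ha1, Pfkp and Pgam1 were 0.69, 0.95 and 0.82. P4ha1 passed there in edgeR's quasi-likelihood test (adjusted p = 0.0346), while Pfkp (0.0557) and Pgam1 (0.0581) did not. With the clock score as a covariate the changes of P4ha1, Pfkp and Pgam1 were 0.54, 0.99 and 0.59. None of these 3 genes passed in that fit (adjusted p = 0.413 to 0.783 in the same test). Because the clock sums separate these groups, the fit cannot tell the clock score from the treatment.

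In WT hearts 0 of the listed genes passed from saline to Ang/PE, where 0.017% of all genes passed, although 23 of 30 other targets had a positive log2 fold change, with a median of 0.24 beside -0.01 for all genes. Pfkp had a log2 fold change of 0.59 (SE 0.15, adjusted p = 0.0721 in edgeR's quasi-likelihood test). Between genotypes 0 of the listed genes passed in any treatment, and Ramp2, a partner of the Adm receptor, had log2 differences of -0.60 (SE 0.18, adjusted p = 0.227) without a pump and -0.58 (SE 0.17, adjusted p = 0.692) with Ang/PE in edgeR's quasi-likelihood test.

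**Figure D5:**
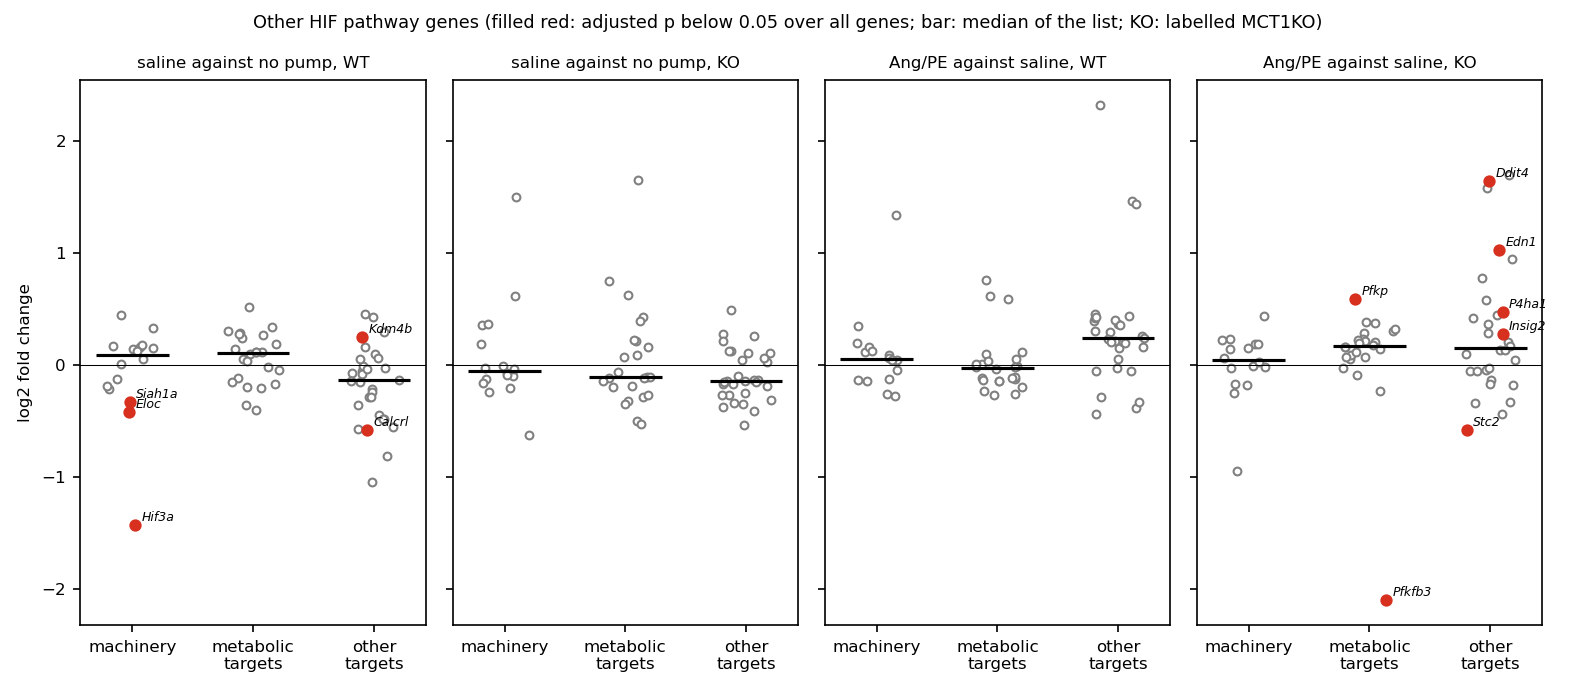
Log2 fold change of each tested gene of the 3 lists in 4 comparisons; points are genes, filled red where they passed at an adjusted p below 0.05, and bars are list medians. In the panel of saline to Ang/PE in hearts labelled MCT1KO the medians of metabolic and other targets are 0.17 and 0.15, and Pfkfb3 lies lowest at -2.10.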

How the data were processed

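RNA of 25 mouse hearts was isolated with a column kit, depleted of ribosomal RNA and made into strand-specific libraries, per the labels' protocols. The authors deposited 1 table of whole-number read counts per gene, not normalized, with 0 columns left unmatched to a heart. The submitters' processing notes name STAR 2.7.9a, cutadapt 1.16, featureCounts 1.6.3, DESeq2 1.42.1 and the GRCm39 mouse genome, without roles. The annotation release and the strand setting of the counting are not given in the sources used here, so reads of overlapping or antisense genes may be assigned to a neighbour.

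Symbols were found for 51948 of 56941 gene identifiers. Genes were filtered with filterByExpr, library sizes were scaled by TMM, and 1 model of 6 groups was fitted with edgeR 4.0.16 (glmQLFit, robust; glmQLFTest) in R 4.3.3. It had 19 residual degrees of freedom and a common biological coefficient of variation of 0.196. All tests were two-sided and p-values were adjusted over 17682 genes within each of 11 comparisons. CPM is a count per 1000000 reads of the TMM-scaled library size, and levels per kilobase use merged exon lengths of GENCODE M21 (GRCm38). Correlations use log2 CPM with a prior count of 2. Depth sets the counting error, which is largest for Ankrd37 and Adm. No replicate pair agreed within sampling noise (lowest chi-square per degree of freedom 3.33 over 43 pairs). The steps were tested on simulated data.

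The 9 members and all lists were chosen with earlier results of these data known. Named besides them are list genes that passed (at most the 4 of smallest p per direction, list and comparison), or the 2 of smallest p where none passed, and the 3 genes most like each member; some genes that this rule names are not reported here. Groups and replicate numbers came from the titles. The alternatives were RLE scaling, DESeq2 1.42.0, no low-count filter, only the groups compared, a replicate block, Xist or marker scores as covariates, and leaving out each heart. Sequences were searched in RefSeq windows of GRCm38.p6 only, and no coordinate of that build was joined to the counts.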

Additional observations from a re-analysis of the deposited data

Results flagged for a closer look

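Within groups of 4 to 6 hearts, 36 sets of member values were checked for a heart far from the others, and chance alone marks about 5% of such sets. It marked 3, all in the saline hearts labelled MCT1KO. Epas1 was 448 CPM in replicate 3, against 402 to 407 CPM in the other 3 hearts. Ndrg1 was 59.5 CPM in replicate 3, against 38.4 to 39.6 CPM. Egln1 was 217 CPM in replicate 4, against 333 to 352 CPM. Replicate 3 had the lowest and replicate 4 the highest summed atrial muscle markers of this group, at 1.5 and 3679 CPM, and their part in these values was not tested.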

How the results depend on the processing

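Over 99 member values (9 genes in 11 comparisons), 10 alternatives and 25 fits that each left out 1 heart gave 3465 values. Of these, 3422 kept their direction, or changed sign only within their own SE (119), and kept their side of the threshold, 11 lost and 16 gained significance, and 16 reversed. Only Bnip3 and Vegfa, in 1 comparison each, were called in the main fit, so no other value could lose a call. Fits without 1 heart gave 2475 of the values, many of them without a heart outside the groups compared. The 3422 is therefore no measure of how firm these calls are. The clock covariate, the removal of mitochondrially encoded genes and the fit without saline hearts of higher atrial signal were chosen after seeing the data, and the last assumes that the 1 saline heart left per genotype varies like the other groups. Between no pump and saline in WT hearts, 1 member passed, but 3 with DESeq2 (Bnip3, Adm, Ndrg1), 2 in a fit of only the groups compared and 2 without mitochondrially encoded genes (Bnip3, Ndrg1 in both), and 0 with atrial and fat scores. From saline to Ang/PE in hearts labelled MCT1KO, 1 passed, but 0 with atrial and fat scores, with the clock score and in the groups compared alone (Vegfa 0.43, adjusted p = 0.255 in edgeR's quasi-likelihood test). From saline to Ang/PE in WT hearts, 2 passed (Bnip3, Ndrg1) instead of 0 in the groups compared alone. The fit that left 1 saline heart per genotype is described by its log2 changes only. For the covariate fits, the groups compared alone and the fit without mitochondrially encoded genes, the share of all genes that passed is not given here. Those member counts are therefore no result about the members alone. Leaving out 1 heart gave 0 to 2 members in these 3 comparisons and 0 to 1 from no pump to saline in hearts labelled MCT1KO, and Vegfa ranged from 0.33 to 0.53 (adjusted p 0.00536 to 0.138) and Bnip3 in WT saline hearts from -0.79 to -0.63 (adjusted p 0.000777 to 0.0565). Without replicate 3 of the saline hearts labelled MCT1KO, Bnip3 was 0.41 from saline to Ang/PE and -0.49 from no pump to saline in that label.

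With atrial and fat scores the direction reversed for Vegfa between genotypes with saline (0.068), for Egln1 (-0.064), Egln3 (-0.022) and Adm (0.022) from saline to Ang/PE, and for Egln3 (0.087), Bnip3 (0.18) and Vegfa (0.10) from no pump to saline, the last 6 in hearts labelled MCT1KO. With the clock score it reversed for Egln3 from saline to Ang/PE (-0.14). Without the saline hearts of higher atrial signal it reversed for Egln3 (0.17), Adm (0.031) and Vegfa (0.16) between genotypes with saline, for Egln3 (0.045), Bnip3 (0.46) and Vegfa (0.076) from no pump to saline in hearts labelled MCT1KO, and for Egln3 (0.19) and Vegfa (0.0265) in the difference between genotypes in that step. The causes of these reversals were not tested. The labels do not say that replicate numbers pair hearts. Same-numbered hearts had mean correlations from -0.157 to 0.101 across comparisons, and a single pair reached 0.405 between genotypes with saline. With 3 or 4 such pairs per comparison, these values cannot settle whether the numbers pair hearts. With the replicate block, Vegfa was 0.48 (adjusted p = 0.0304) and Bnip3 -0.68 (adjusted p = 0.0367), and the members called were the same. Over all genes the background moved more: 788 calls from saline to Ang/PE in hearts labelled MCT1KO became 1224 with DESeq2, 534 with the block and 39 to 1541 without 1 heart, and 1168 between no pump and saline in WT hearts became 1960, 527 and 60 to 2234. Depth limits Ankrd37 and Adm most, at no more than 119 and 159 counts per heart.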
